A study of Mus musculus with 12 samples.

Results

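The 38 mouse genes described here encode the transporters of glucose and lactate, the enzymes of glycolysis, the proteins that set the fate of pyruvate, and a part of the oxygen-sensing pathway with 5 of its targets. They were chosen by gene symbol in GENCODE mouse release M21 from a list proposed with earlier results of these data in view, so a share of them called is a description of these genes. All 38 symbols were found, on 39 of the 52550 gene identifiers in each table. Aldoa carries another identifier, which held at most 0.305 CPM (counts scaled to library size) in any library and was not tested, so that each gene was tested once. Messenger RNA was sequenced from mouse embryonic stem (ES) cells in 12 libraries, 6 groups of 2. Unmodified cells (those whose labels name no knockout) were kept in serum/LIF or 2iL medium, and cells labelled GSK3 knockout in serum/LIF only. Each of these settings was given 100 nM JQ1, which detaches BET bromodomain proteins from acetylated chromatin, or the solvent DMSO, and was harvested after 60 h. LIF is the cytokine that maintains ES cells in culture, and all groups received it.

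Serum/LIF medium was high-glucose DMEM with fetal serum, on fibroblast feeders until the cells were moved to gelatin for the experiment. The 2iL medium was a serum-free mix of DMEM/F12 and Neurobasal with N2 and B27 supplements, the MEK inhibitor PD0325901 and a GSK3 inhibitor, on gelatin. Both media held pyruvate. Base medium, serum, feeder history and the inhibitors therefore differ together between 2iL and serum/LIF and cannot be told apart. The strain and sex of the cells, which GSK3 gene was targeted, whether the knockout is 1 clone, and whether libraries of a group came from separate cultures are not given in the sources used here. The p-values then rest on differences between library pairs that may be technical only.

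Glycolysis splits glucose into pyruvate in the cytosol, yielding ATP and NADH. Pyruvate either enters mitochondria for oxidation by the pyruvate dehydrogenase complex, which PDK kinases switch off, or is reduced to lactate, which leaves the cell by monocarboxylate transporters. HIF-1, a dimer of HIF-1α and ARNT, raises many of these genes when oxygen is low, and prolyl hydroxylases of the EGLN family mark HIF-1α for destruction when oxygen is present. ES cells in culture are known for a high rate of glycolysis.

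Library totals ran from 17869865 to 48723436 expected counts, and the deepest was serum/LIF DMSO replicate 1. Mitochondrially encoded genes took 9.44% to 11.85% of counts in serum/LIF with DMSO and 6.45% to 7.51% with JQ1, 6.41% to 6.75% and 4.67% to 4.82% in 2iL, and 10.66% to 11.16% and 7.20% to 8.43% in the knockout. The share was lower with JQ1 in each setting. Its part in the results was not tested beyond a fit without these genes. The knockout libraries held 23.4 to 32.9 CPM of Gsk3a against 65.1 to 129.9 in unmodified cells, and 42.5 to 61.0 of Gsk3b against 72.2 to 158, so both transcripts were lower but present. The 10 ES cell markers summed to 1955 to 2534 CPM in serum/LIF with DMSO and 1309 to 2034 with JQ1, 3734 to 4168 and 3827 to 4189 in the knockout, and 4431 to 4971 and 4966 to 5113 in 2iL, and none was at 0 in a library. The 12 fibroblast markers summed to 909 to 915 CPM in serum/LIF with DMSO and 367 to 368 with JQ1, 328 to 518 and 169 to 222 in the knockout, and 12.99 to 22.4 and 6.47 to 8.94 in 2iL. In such bulk RNA, fewer cells of a type and less RNA per cell cannot be told apart.

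On the length-scaled TPM scale (transcript abundance per length and depth), the only scale used here to compare levels between genes, Gapdh was the most abundant of the 38 in every group. Its group means ran from 3723 ± 515 TPM (SD, n = 2) in serum/LIF with DMSO to 7165 ± 249 in 2iL with JQ1. Eno1, Pkm, Ldha and Aldoa followed in serum/LIF with DMSO, at 1243 ± 121, 1143 ± 103, 963.3 ± 68.9 and 919.2 ± 48.5 TPM. Eno1 and Pkm, and Ldha and Aldoa, differed by less than their spread. The lowest in that group was Pfkfb4 at 1.18 ± 0.0849 TPM. The transporters Slc2a3 and Slc2a1 stood at 842 ± 188 and 525.5 ± 80.9 TPM, the enzymes Aldoc and Eno2 at 3.94 ± 0.707 and 3.8 ± 0.58, and the regulator Pfkfb3 and the hypoxia target Ankrd37 at 13.65 ± 5.98 and 5.63 ± 0.424 TPM. Eno1 shares reads with Eno1b, an intronless copy, which took 37.4% to 43.4% of the CPM of the pair, so the level of Eno1 is uncertain. Counts that were not whole, a sign of reads shared with other loci, were found in all 12 libraries for Pfkp, Gapdh, Pgk1, Pkm and Pdha1 as well. Pfkp, Pfkm and Ankrd37 overlap expressed genes on the other strand (Pitrm1, Senp1 and Ufsp2), and reads could not be told apart there if counting ignored strand, which the sources used here do not state.

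Without JQ1, cells in 2iL held less transporter, Pfkl and Ldha RNA than cells in serum/LIF and more Hk1, Ldhb and mitochondrial pyruvate carrier RNA. At a Benjamini-Hochberg adjusted p under 0.05 in edgeR's quasi-likelihood test, 10 of the 38 genes were called higher and 17 lower, against 28.3% and 26.5% of all 16987 genes tested, and their median log2 difference was -0.11 and that of all genes 0.04. Signed values without a unit are log2 differences throughout, the value after ± is their standard error, and each group has 2 libraries, given in the order replicate 1 and replicate 2. Where a gene lost its call in another fit, the log2 difference in that fit stands in parentheses. All 4 transporters fell. Slc16a3 encodes MCT4, a lactate exporter. It read 315 and 319.7 CPM in serum/LIF and 12.2 and 17.0 in 2iL (log2 difference -4.44 ± 0.15, adjusted p = 6.39e-10). Slc2a1 encodes the glucose transporter GLUT1. Its libraries held 1481 and 1237 CPM in serum/LIF against 165 and 185 in 2iL (log2 difference -2.96 ± 0.19, adjusted p = 4.56e-08). Neither gene's groups overlapped, and these were the largest falls among the 38. Both were picked for the size of the fall, so the lack of overlap is not separate evidence. Slc2a3, which encodes the high-affinity transporter GLUT3, fell less (log2 difference -1.12 ± 0.19, adjusted p = 0.000311), and Slc16a1, which encodes the lactate and pyruvate carrier MCT1, went from 141 and 176 CPM to 100.1 and 110.1 (log2 difference -0.59 ± 0.12, adjusted p = 0.000862). Of the marker genes tested, 10 of 11 for fibroblasts were lower in 2iL (median -9.25), and of 10 for ES cells 8 were higher and 2 lower (median 1.42). With JQ1 in both media these were 11 of 11 (median -7.26), and 8 and 2 of 10 (median 2.33). Of the 12 fibroblast markers 5 and 6 were at 0 in the 2iL libraries with DMSO, and 4 and 6 with JQ1. The size of the fibroblast medians thus depends on counts at or near 0. The part of the marker genes in these differences was not tested.

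Among the 16 glycolytic enzymes 8 fell and 4 rose in 2iL, and genes for the same step differed from each other. Hexokinase adds the first phosphate to glucose. Hk1 held 27.0 and 30.2 CPM in serum/LIF and 153 and 171 in 2iL (log2 difference 2.50 ± 0.12, adjusted p = 5.07e-09), whereas Hk2, at 244 and 235 CPM in serum/LIF against 239 and 259.6 in 2iL, did not pass (log2 difference 0.06 ± 0.09, adjusted p = 0.627). Phosphofructokinase commits sugar to glycolysis. Its liver-type gene Pfkl held 254 and 239 CPM in serum/LIF and 67.8 and 66.3 in 2iL (log2 difference -1.88 ± 0.10, adjusted p = 1.33e-08), while its platelet-type gene Pfkp went from 112 and 181 CPM up to 212 and 263 (log2 difference 0.70 ± 0.18, adjusted p = 0.00535). In the later steps Pgk1, phosphoglycerate kinase, went from 556 and 539 CPM to 305 and 302 (log2 difference -0.85 ± 0.10, adjusted p = 1.6e-05). Enolase genes fell together, at -1.07 ± 0.10 for Eno1, -1.03 ± 0.24 for Eno2 and -1.35 ± 0.24 for the muscle-type Eno3 (28.4 and 20.7 against 9.68 and 9.63 CPM). The Eno1 and Eno1b values summed also fell, from 3359 and 3045 CPM to 1643 and 1575. Tpi1 (-0.56), Pgam1 (-0.32) and Pkm, which encodes pyruvate kinase (-0.74), were lower, and Gpi1 (0.63) and Aldoa (0.60) higher. The other 4 enzyme genes, Hk2, Pfkm, Aldoc and Gapdh, did not pass, at 0.06, 0.21, -0.04 and 0.11. Pfkp (0.48) and Pgam1 (-0.27) lost their calls without 2iL DMSO replicate 2, at adjusted p from 0.0711 to 0.0948. Pfkp (0.39) and Pgam1 (-0.25) lost their calls without serum/LIF DMSO replicate 1, at adjusted p from 0.0548 to 0.16.

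At pyruvate the 2 lactate dehydrogenase genes separated. Ldha, whose subunit favours lactate formation, held 1186 and 1138 CPM in serum/LIF and 377 and 336 in 2iL (log2 difference -1.70 ± 0.12, adjusted p = 1.42e-07). Ldhb, whose subunit favours the return to pyruvate, went from 158 and 202 CPM up to 369 and 417 (log2 difference 1.12 ± 0.17, adjusted p = 0.000105). The pyruvate dehydrogenase kinase gene Pdk1 fell from 60.1 and 88.8 CPM to 19.6 and 28.1 (log2 difference -1.64 ± 0.24, adjusted p = 7.29e-05) and Pdk3 rose from 33.2 and 27.6 to 55.8 and 52.9 (log2 difference 0.83 ± 0.13, adjusted p = 0.000136). Mpc1 and Mpc2, which together form the mitochondrial pyruvate carrier, were both higher (1.94 ± 0.15 and 1.14 ± 0.23), and Pdha1, a subunit of pyruvate dehydrogenase, did not pass (0.13). Pfkfb3, whose enzyme makes the activator of phosphofructokinase, fell from 70.1 and 37.1 CPM to 11.7 and 17.5 (log2 difference -1.88 ± 0.31, adjusted p = 0.000199), and Pfkfb4 was at 0.04.

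Of the 4 oxygen-sensing genes only Arnt passed, higher in 2iL (log2 difference 1.03 ± 0.12, adjusted p = 1.4e-05). Hif1a, Egln1 and Egln3 did not pass, at -0.12 (95% interval -0.35 to 0.11), -0.11 and -0.05. The 5 hypoxia targets did not move as a group. Vegfa, an angiogenic growth factor, rose from 26.3 and 24.6 CPM to 56.4 and 53.5 (log2 difference 1.11 ± 0.12, adjusted p = 6.78e-06). Bnip3, a receptor for the removal of mitochondria, held 21.6 and 39.2 CPM in serum/LIF and 14.5 and 18.2 in 2iL (log2 difference -0.88 ± 0.29, adjusted p = 0.0204). Ankrd37, an ankyrin repeat gene induced by HIF-1, was at most 3.58 CPM anywhere and fell (-1.15 ± 0.45). Ndrg1 and Ero1l, at 0.30 and -0.25, did not pass. Ankrd37 lost the call in DESeq2 (-1.22), in a fit of only the libraries compared (-1.21), without 2iL DMSO replicate 2 (-0.56), serum/LIF DMSO replicate 1 (-1.32) and serum/LIF DMSO replicate 2 (-0.97), at adjusted p from 0.06 to 0.241. Bnip3 lost the call without 2iL DMSO replicate 1 (-0.76) and serum/LIF DMSO replicate 2 (-0.40), at adjusted p from 0.099 to 0.269.

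The knockout comparison sets cells labelled GSK3 knockout against unmodified cells, both in serum/LIF with DMSO. Loss of GSK3 and any other difference between these cells cannot be told apart. The knockout comparison shares the serum/LIF DMSO libraries with the comparison of media, so its values are set beside that one with no measure of likeness. In the knockout 12 of the 38 genes were called higher and 8 lower, against 18.9% and 21.0% of all 16987 genes tested, and their median log2 difference was 0.12 and that of all genes 0.01. Slc2a1 fell to 568 and 585 CPM (log2 difference -1.24 ± 0.18, adjusted p = 0.000122) and Slc16a3 to 100.2 and 101 (log2 difference -1.66 ± 0.13, adjusted p = 1.04e-06), while Slc2a3 (0.71) and Slc16a1, at 237 and 246 CPM (log2 difference 0.60 ± 0.12, adjusted p = 0.00129), rose. Pfkfb3 fell the most, to 9.09 and 9.56 CPM (log2 difference -2.53 ± 0.32, adjusted p = 5.13e-05). Its serum/LIF libraries, 70.1 and 37.1 CPM, were well apart from each other, and both lay above both knockout libraries. Pfkfb3 was picked for the size of the fall, so this order is not separate evidence. Beside these falls, 9 of 11 fibroblast markers tested were lower in the knockout (median -1.04) and 8 of 10 ES cell markers higher (median 0.93), and their part was not tested. Eno3 went to 6.55 and 8.10 CPM (log2 difference -1.75 ± 0.24, adjusted p = 0.000101).

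Several genes that differed strongly between media stood close to their unmodified level in the knockout. Ldha held 1021 and 1146 CPM (95% interval of the log2 difference -0.36 to 0.16) and Pfkl 218 and 226 (-0.37 to 0.06). Pgk1 held 536 and 607 CPM (-0.16 to 0.28) and Pkm 2145 and 2307 (-0.22 to 0.20), and none of the 4 passed. Pdk1 rose to 154 and 148 CPM (log2 difference 1.03 ± 0.23, adjusted p = 0.00305), and Ldhb fell to 119.6 and 108 (log2 difference -0.67 ± 0.17, adjusted p = 0.00753). Hk1 was slightly lower at 21.2 and 22.1 CPM (log2 difference -0.40 ± 0.12, adjusted p = 0.0187). Mpc1 (log2 difference 0.94 ± 0.15, adjusted p = 0.000367), Arnt (log2 difference 0.61 ± 0.12, adjusted p = 0.00167), Gpi1 (0.52 ± 0.10), Vegfa (0.46 ± 0.12; 36.5 and 33.4 CPM) and Ero1l (0.34 ± 0.12), which encodes an oxidase of protein folding, rose. Smaller or lowly expressed changes were Aldoc (0.69), Eno2 (0.77), Pfkfb4 (0.68) and Egln3 (0.60) upward and Tpi1 (-0.32) and Ankrd37 (-1.53) downward. Bnip3, at 21.3 and 21.1 CPM, did not pass (-0.50). With a library left out, 10 to 15 members were called in place of 20. Aldoc (0.63), Pfkfb4 (0.62), Egln3 (0.54) and Ero1l (0.28) lost their calls in DESeq2, at adjusted p from 0.0597 to 0.16. Ero1l (0.28), Aldoc (0.63) and Pfkfb4 (0.62) lost their calls with RLE scaling, at adjusted p from 0.0506 to 0.0983. Pfkfb4 (0.68) lost the call with no filter on low counts, at adjusted p = 0.102. Ero1l (0.32) and Pfkfb4 (0.66) lost their calls in a fit of only the libraries compared, at adjusted p from 0.0578 to 0.068. Ero1l (0.32) lost the call with a filter of 1 CPM in 4 libraries, at adjusted p = 0.0535. Ero1l (0.31) and Pfkfb4 (0.66) lost their calls without mitochondrially encoded genes, at adjusted p from 0.0555 to 0.0598. Hk1 (-0.36), Vegfa (0.39), Ero1l (0.39), Aldoc (0.68), Eno2 (0.67), Pfkfb4 (0.82), Egln3 (0.66), Tpi1 (-0.25), Ankrd37 (-1.64) and Slc2a3 (0.61) lost their calls without knockout DMSO replicate 1, at adjusted p from 0.057 to 0.226. Hk1 (-0.42), Ldhb (-0.59), Ero1l (0.29), Aldoc (0.71), Pfkfb4 (0.54), Egln3 (0.53), Tpi1 (-0.39) and Ankrd37 (-1.43) lost their calls without knockout DMSO replicate 2, at adjusted p from 0.0626 to 0.242. Ero1l (0.19), Aldoc (0.41), Eno2 (0.77), Pfkfb4 (0.72), Egln3 (0.47) and Tpi1 (-0.24) lost their calls without serum/LIF DMSO replicate 1, at adjusted p from 0.083 to 0.333. Slc2a3 (0.53), Hk1 (-0.32), Ldhb (-0.48), Vegfa (0.41), Eno2 (0.78), Pfkfb4 (0.65) and Ankrd37 (-1.35) lost their calls without serum/LIF DMSO replicate 2, at adjusted p from 0.0608 to 0.145.

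JQ1 in serum/LIF was followed by lower Ndrg1 and Ldhb RNA and by small rises of 5 genes. With JQ1 5 of the 38 genes were called higher and 2 lower, against 8.54% and 12.8% of all 16987 genes tested, and their median log2 difference was 0.12 and that of all genes -0.02. The share of the genes called is near that of all genes. Ndrg1, a stress-responsive gene raised by HIF-1, fell from 9.70 and 9.21 CPM to 3.65 and 3.87 (log2 difference -1.33 ± 0.18, adjusted p = 0.000399), and Ldhb fell from 158 and 202 to 72.5 and 108 (log2 difference -1.00 ± 0.17, adjusted p = 0.00175). In both genes the JQ1 libraries lay below both DMSO libraries. The 2 genes were picked by their calls, so this order is not separate evidence. The genes called higher moved by less than 0.5 on the log2 scale. They were Aldoa (0.38 ± 0.11), Gapdh (0.35 ± 0.10), Pkm (0.42 ± 0.10; 2325 and 2157 against 2910 and 3079 CPM), Hif1a (0.45 ± 0.11; 145 and 132 against 200.3 and 179 CPM) and Arnt (0.43 ± 0.12). No transporter passed, with 0.18 ± 0.19 for Slc2a3, 0.29 ± 0.12 for Slc16a1 (141 and 176 against 203 and 185 CPM), -0.29 ± 0.17 for Slc2a1 (1374 and 845 CPM with JQ1) and -0.19 ± 0.13 for Slc16a3 (290 and 267 CPM). Of the 4, 1 had an unadjusted p under 0.05 in edgeR and 0 passed in DESeq2. Of 11 fibroblast markers tested 10 fell with JQ1 (median -1.47), of 10 ES cell markers 7 fell and 0 rose (median -0.96), and the mitochondrial share was lower. Their part was not tested. With a replicate block within each setting, chosen after seeing the data, 13 of the 38 genes were called in place of 7. Of the 7 calls only those of Ldhb and Ndrg1 were kept in every alternative fit. Aldoa (0.37), Gapdh (0.35), Pkm (0.42), Hif1a (0.45) and Arnt (0.42) lost their calls in a fit of only the libraries compared, at adjusted p from 0.0757 to 0.249. Aldoa (0.39) and Arnt (0.39) lost their calls without serum/LIF DMSO replicate 1, at adjusted p from 0.0962 to 0.126. Gapdh (0.26), Pkm (0.37), Hif1a (0.38), Arnt (0.47) and Aldoa (0.37) lost their calls without serum/LIF DMSO replicate 2, at adjusted p from 0.0709 to 0.19. Hif1a (0.37) lost the call without serum/LIF JQ1 replicate 1, at adjusted p = 0.06. Aldoa (0.28), Gapdh (0.30) and Arnt (0.40) lost their calls without serum/LIF JQ1 replicate 2, at adjusted p from 0.0713 to 0.122.

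In 2iL JQ1 was followed by higher RNA of 3 of the 4 transporters and 10 of the 16 glycolytic enzymes. Of the 7 pyruvate and lactate genes 3 were called higher, and of the 5 hypoxia targets 2. There 20 of the 38 genes were called higher and 4 lower, against 11.2% and 17.3% of all 16987 genes tested, and their median log2 difference was 0.46 and that of all genes -0.06. Bnip3 had the largest rise, from 14.5 and 18.2 CPM to 52.9 and 68.3 (log2 difference 1.89 ± 0.29, adjusted p = 0.000537), or 3.71-fold. Pfkl went from 67.8 and 66.3 to 247 and 222 CPM (log2 difference 1.81 ± 0.10, adjusted p = 1.08e-06), 3.5-fold, Ldha from 377 and 336 to 1004 and 926 (log2 difference 1.44 ± 0.12, adjusted p = 8.82e-06), and Pdk1 from 19.6 and 28.1 to 51.6 and 64.3 (log2 difference 1.28 ± 0.24, adjusted p = 0.00182). In these 4 genes both JQ1 libraries lay above both DMSO libraries. The 4 were picked as the largest called rises, so this order is not separate evidence. This comparison and that of media share the 2iL DMSO libraries, so a low value there lowers 1 difference and raises the other, and their opposite signs are not independent.

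Of the transporters 3 of 4 rose with JQ1 in 2iL. Slc2a1 went from 165 and 185 CPM to 382 and 368 (log2 difference 1.10 ± 0.18, adjusted p = 0.000686), Slc16a3 from 12.2 and 17.0 to 29.7 and 30.8 (log2 difference 1.05 ± 0.14, adjusted p = 0.000189), and Slc2a3 by 0.83 ± 0.19. Slc16a1 held 98.2 and 87.7 CPM and did not pass (-0.18). Of the 16 enzymes 10 rose, with a list median of 0.65, and they cover each step from hexokinase to pyruvate kinase except phosphoglycerate mutase, whose gene Pgam1 was at 0.31 (adjusted p = 0.0569). Hk2 rose to 396 and 374 CPM (log2 difference 0.63 ± 0.10, adjusted p = 0.000478) and Hk1, at 128 and 133, did not pass (-0.31). Pfkp rose to 483 and 495 CPM (log2 difference 1.04 ± 0.18, adjusted p = 0.00118), Pgk1 to 670.3 and 680.3 (log2 difference 1.15 ± 0.10, adjusted p = 1.17e-05), Eno1 from 931 and 966 to 1576 and 1512 (log2 difference 0.70 ± 0.10, adjusted p = 0.000233) and Pkm from 1356 and 1322 to 2922 and 2625 (log2 difference 1.05 ± 0.10, adjusted p = 1.61e-05). The sum of Eno1 and Eno1b went to 2618 and 2416 CPM. Tpi1 (0.77), Aldoa (0.67), Gapdh (0.67) and Gpi1 (0.49) rose by smaller steps. Eno3 fell to 3.13 and 1.94 CPM (log2 difference -1.95 ± 0.28, adjusted p = 0.000299) and Eno2, the neuronal form, to 1.37 and 0.863 (log2 difference -1.27 ± 0.29, adjusted p = 0.00609), both from low levels. Pfkm and Aldoc, at 0.21 and 0.35, did not pass. Eno2 (-0.94) lost the call without 2iL JQ1 replicate 2, at adjusted p = 0.0864.

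Downstream of pyruvate kinase, Pdha1 rose (log2 difference 0.46 ± 0.09, adjusted p = 0.0028) and Mpc1 fell (log2 difference -0.48 ± 0.15, adjusted p = 0.0294), while Ldhb, Pdk3 and Mpc2 did not pass, at -0.17, -0.18 and -0.09. Pfkfb3 and Pfkfb4 did not pass in this or the other JQ1 comparisons, and in 2iL their differences were -0.87 ± 0.33 and -0.35 ± 0.27 (6.61 and 9.27 CPM of Pfkfb3 with JQ1), where 1 of the 2 had an unadjusted p under 0.05 in edgeR and 1 passed in DESeq2. Hif1a rose from 122 and 133 CPM to 167 and 187 (log2 difference 0.47 ± 0.11, adjusted p = 0.00602) and Arnt rose by 0.61 ± 0.12. The hydroxylase genes Egln1 and Egln3 were at 0.27 and 0.08 and did not pass. Hypoxia targets were split. Bnip3 and Ero1l rose, the latter from 88.9 and 98.7 CPM to 152 and 151 (log2 difference 0.69 ± 0.12, adjusted p = 0.00132), Vegfa fell from 56.4 and 53.5 to 33.4 and 30.4 (log2 difference -0.78 ± 0.12, adjusted p = 0.000584), and Ndrg1, at 11.2 and 13.2 CPM, and Ankrd37 did not pass (0.06 and -0.57). The fibroblast markers summed to 22.4 and 12.99 CPM with DMSO and to 8.94 and 6.47 with JQ1. Of 11 tested 5 fell and 0 rose (median -0.49). Of 10 ES cell markers 1 rose and 1 fell (median 0.27). The part of these markers was not tested. Of the 24 calls 21 were kept in every alternative fit and with each library left out. Mpc1 lost the call in a fit of only the libraries compared (-0.44), without 2iL DMSO replicate 1 (-0.30), 2iL JQ1 replicate 1 (-0.39) and 2iL JQ1 replicate 2 (-0.54), at adjusted p from 0.0525 to 0.245. Hif1a lost the call without 2iL DMSO replicate 1 (0.41) and 2iL JQ1 replicate 2 (0.39), at adjusted p from 0.0506 to 0.0746.

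The start regions of the 4 genes with the largest rises with JQ1 in 2iL are shown. In them ACGTG, a form of the core of the hypoxia response element, can be looked for. RefSeq windows of 250 bases before to 50 after the gene start (GRCm38.p6) were found for 35 of the 38 genes. Each is written from 5' to 3' on the gene's strand, and capitals mark ACGTG or its reverse complement CACGT, which run together in CACGTG, the E-box bound by MYC and related factors.
Bnip3 (chr7:138909457-138909756, minus strand): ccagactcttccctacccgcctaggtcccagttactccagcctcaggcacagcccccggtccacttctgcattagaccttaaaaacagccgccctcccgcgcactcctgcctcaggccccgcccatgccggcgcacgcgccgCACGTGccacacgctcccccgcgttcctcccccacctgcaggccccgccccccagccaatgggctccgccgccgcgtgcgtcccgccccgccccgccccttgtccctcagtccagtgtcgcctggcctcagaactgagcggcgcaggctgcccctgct
Pfkl (chr10:78009758-78010057, minus strand): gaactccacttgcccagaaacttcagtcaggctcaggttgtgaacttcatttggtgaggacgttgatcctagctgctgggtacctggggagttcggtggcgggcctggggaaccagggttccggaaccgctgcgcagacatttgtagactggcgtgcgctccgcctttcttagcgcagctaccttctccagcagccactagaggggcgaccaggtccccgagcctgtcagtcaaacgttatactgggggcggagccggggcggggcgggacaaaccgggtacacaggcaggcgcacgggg
Ldha (chr7:46845554-46845853, plus strand): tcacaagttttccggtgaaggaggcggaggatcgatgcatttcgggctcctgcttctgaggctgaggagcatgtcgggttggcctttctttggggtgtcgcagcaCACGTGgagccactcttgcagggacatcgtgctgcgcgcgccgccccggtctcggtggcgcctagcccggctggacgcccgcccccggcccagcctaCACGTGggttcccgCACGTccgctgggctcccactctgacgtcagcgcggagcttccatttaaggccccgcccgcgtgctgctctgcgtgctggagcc
Pdk1 (chr2:71872974-71873273, plus strand): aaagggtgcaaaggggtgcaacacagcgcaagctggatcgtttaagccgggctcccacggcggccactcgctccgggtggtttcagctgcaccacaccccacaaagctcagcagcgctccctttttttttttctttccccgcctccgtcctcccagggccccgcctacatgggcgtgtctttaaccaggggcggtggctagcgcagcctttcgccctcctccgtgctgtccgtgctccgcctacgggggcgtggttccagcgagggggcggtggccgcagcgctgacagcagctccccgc
The Ldha window held 5 matches over both strands, with 2 CACGTG that each count on both, and that of Bnip3 held 2, both within 1 CACGTG. Pfkl and Pdk1 held 0 in this window, and other forms of the core were not searched for. In the first window listed for each of the 35 genes, 17 (48.6%) held ACGTG on either strand, against 19.7% of 27025 genes in the same table, and 5 (14.3%) held CACGTG against 7.2%. The 27025 genes were not limited to those tested here, nor matched for base composition, so these shares give no measure of enrichment. ACGTG was in 8 of 18 windows of genes called higher with JQ1 in 2iL (44.4%) and in 9 of 17 of the others (52.9%). Counting any window of the 11 genes that have several, 21 of 35 held it (60.0%), against 21.8% of all genes, with 10 of 18 (55.6%) and 11 of 17 (64.7%) in the split. A match describes letters only and shows no binding.

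In GSK3 knockout cells JQ1 was followed by higher RNA of 9 of the 16 glycolytic enzymes and lower RNA of both monocarboxylate transporters. There 16 of the 38 genes were called higher and 6 lower, against 14.6% and 19.5% of all 16987 genes tested, and their median log2 difference was 0.26 and that of all genes -0.06. Bnip3 rose from 21.3 and 21.1 CPM to 46.8 and 59.5 (log2 difference 1.32 ± 0.29, adjusted p = 0.00391), and Ldhb from 119.6 and 108 to 228 and 214 (log2 difference 0.96 ± 0.17, adjusted p = 0.00118). Of the 16 enzymes 9 rose, among them Gapdh (log2 difference 0.76 ± 0.10, adjusted p = 0.000194), Pgk1 from 536 and 607 to 902 and 969 CPM (log2 difference 0.71 ± 0.10, adjusted p = 0.000298), Pfkl from 218 and 226 to 338 and 345 (log2 difference 0.62 ± 0.10, adjusted p = 0.000565), Aldoa (0.65 ± 0.11), Pkm (0.61 ± 0.10; 3324 and 3480 CPM), Gpi1 (0.59 ± 0.10), Tpi1 (0.49 ± 0.11), Eno1 (0.43 ± 0.10; 1756 and 1857 against 2405 and 2454 CPM) and Pgam1 (0.41 ± 0.11). Eno3 fell from 6.55 and 8.10 to 3.37 and 2.90 CPM (log2 difference -1.21 ± 0.27, adjusted p = 0.00446) and Eno2 by 0.83 (SE 0.23). Hk1, Hk2, Pfkm, Pfkp and Aldoc did not pass, at 0.26, -0.03, 0.26, 0.11 and 0.00. Both monocarboxylate transporters fell. Slc16a3 went from 100.2 and 101 CPM to 50.3 and 56.6 (log2 difference -0.91 ± 0.13, adjusted p = 0.000264) and Slc16a1 from 237 and 246 to 159 and 162 (log2 difference -0.58 ± 0.12, adjusted p = 0.00248). The glucose transporters did not pass, at -0.12 ± 0.17 for Slc2a1 (529 and 529 CPM) and 0.16 ± 0.19 for Slc2a3. Tpi1 (0.43), Eno1 (0.39), Pgam1 (0.36) and Eno2 (-0.72) lost their calls without knockout DMSO replicate 1, at adjusted p from 0.0521 to 0.114. Tpi1 (0.41), Pgam1 (0.37) and Eno2 (-0.64) lost their calls without knockout JQ1 replicate 2, at adjusted p from 0.0601 to 0.136.

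Ldha rose from 1021 and 1146 to 1292 and 1443 CPM in the knockout (log2 difference 0.34 ± 0.12, adjusted p = 0.0463), Pdk3 from 25.7 and 27.2 to 33.1 and 41.4 (log2 difference 0.49 ± 0.13, adjusted p = 0.013), and Pdha1 by 0.56 ± 0.09. Pdk1, at 150 and 184 CPM, and the carrier genes Mpc1 and Mpc2 did not pass (0.14, -0.33 and 0.53). Hif1a went from 143 and 132 CPM to 187 and 194 (log2 difference 0.47 ± 0.11, adjusted p = 0.00493) and Egln1 rose by 0.60 ± 0.16, while Arnt and Egln3 were at 0.25 and 0.27 and did not pass. Vegfa fell from 36.5 and 33.4 to 22.4 and 22.6 CPM (log2 difference -0.64 ± 0.12, adjusted p = 0.00213) and Ndrg1 from 12.7 and 12.6 to 5.80 and 7.29 (log2 difference -0.96 ± 0.17, adjusted p = 0.00135). Ero1l, from 136 and 146 to 122 and 137 CPM (-0.13), and Ankrd37 (0.17) did not pass. Of 11 fibroblast markers tested 7 fell here too (median -1.18), and of 10 ES cell markers 1 rose and 2 fell, and their part was not tested. Ldha lost the call with a filter of 1 CPM in 4 libraries (0.30), without knockout DMSO replicate 1 (0.26), knockout DMSO replicate 2 (0.43), knockout JQ1 replicate 1 (0.42) and knockout JQ1 replicate 2 (0.26), at adjusted p from 0.066 to 0.266. Pdk3 lost the call without knockout DMSO replicate 1 (0.46) and knockout JQ1 replicate 2 (0.33), at adjusted p from 0.0923 to 0.152. Egln1 lost the call without knockout DMSO replicate 1 (0.61), knockout DMSO replicate 2 (0.60) and knockout JQ1 replicate 2 (0.54), at adjusted p from 0.0563 to 0.0773.

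Aldoa, Gapdh, Pkm and Hif1a were called higher with JQ1 in serum/LIF, in 2iL and in the knockout. No member was called lower in all 3 settings. The share of all genes called in all 3 was not counted, so this overlap is a description of these genes only. The 3 comparisons share no library. Hif1a had nearly equal log2 differences of 0.45, 0.47 and 0.47, and the 95% intervals of their differences from serum/LIF were -0.31 to 0.34 in 2iL and -0.30 to 0.34 in the knockout. None of the 4 calls in serum/LIF was kept in every alternative, nor was that of Hif1a in 2iL, as given above.

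**Figure D1:**
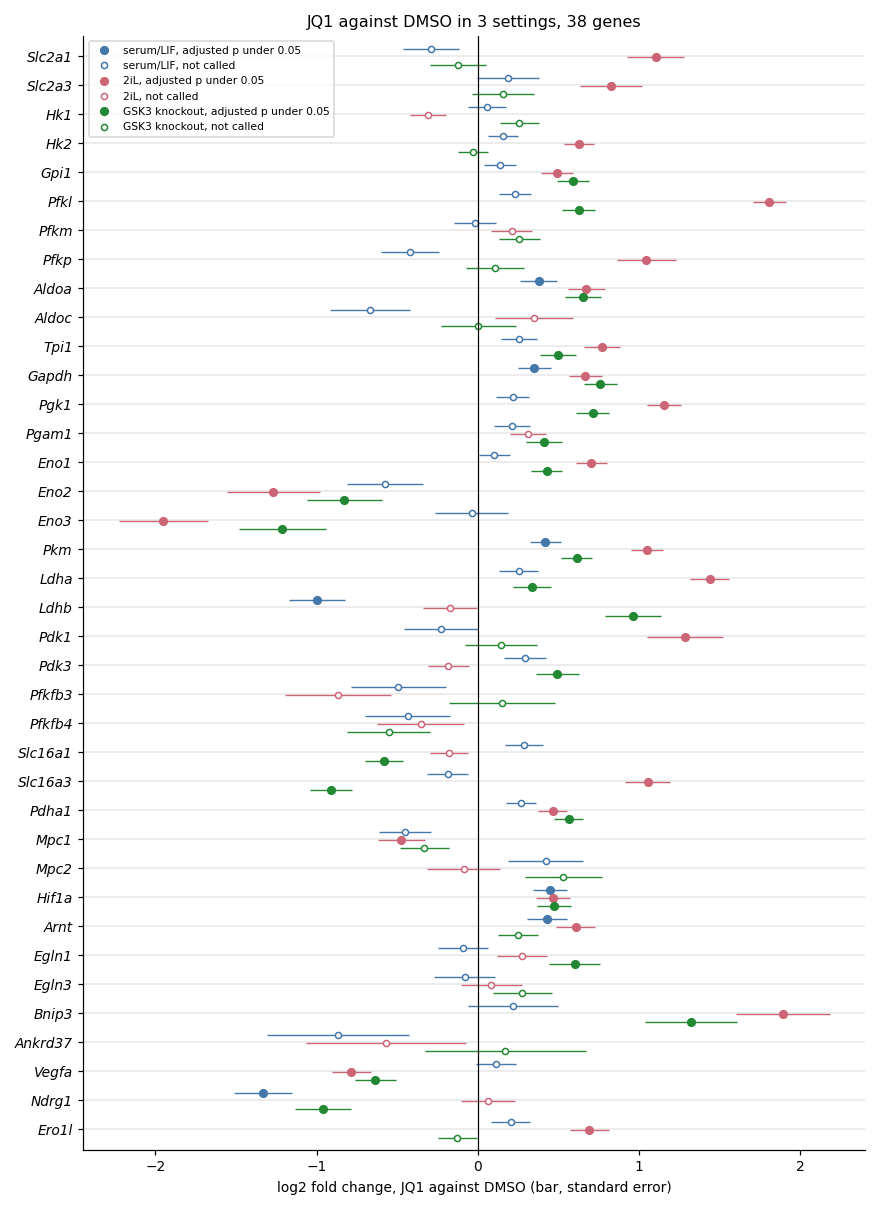
Log2 fold change of each of the 38 genes with JQ1 against DMSO (horizontal axis) in serum/LIF, 2iL and GSK3 knockout cells, with bars for the standard error and filled points for an adjusted p under 0.05. Filled points number 7 in serum/LIF, 24 in 2iL and 22 in the knockout, and Ldhb lies at -1.00 in serum/LIF and at 0.96 in the knockout.

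Whether the JQ1 response differed between settings was tested directly, as the difference of the 2 log2 fold changes. Between 2iL and serum/LIF 11 of the 38 genes were called higher and 2 lower, against 1.35% and 2.80% of all 16987 genes tested, and their median log2 difference was 0.34 and that of all genes -0.05. The largest difference upward was that of Bnip3 (log2 difference 1.67 ± 0.40, adjusted p = 0.0339), whose serum/LIF libraries spread from 21.6 to 39.2 CPM with DMSO and from 25.5 to 44.5 with JQ1. Pfkl followed (log2 difference 1.58 ± 0.14, adjusted p = 0.000114), at 271 and 308 CPM with JQ1 in serum/LIF, then Pdk1 (log2 difference 1.51 ± 0.33, adjusted p = 0.0212; 49.96 and 76.8 CPM) and Pfkp (log2 difference 1.47 ± 0.26, adjusted p = 0.00672; 101 and 117 CPM). Slc2a1 (log2 difference 1.40 ± 0.25, adjusted p = 0.00718), Slc16a3 (log2 difference 1.24 ± 0.19, adjusted p = 0.00308) and Ldha (log2 difference 1.18 ± 0.17, adjusted p = 0.00248; 1243 and 1527 CPM) also differed by over 1 on the log2 scale, as did Ndrg1 (log2 difference 1.39 ± 0.25, adjusted p = 0.00734), which fell in serum/LIF. Pgk1 (0.94 ± 0.15; 590.2 and 682 CPM), Pkm (0.63 ± 0.14) and Eno1 (0.60 ± 0.14; 2070 and 1902 with DMSO and 2028 and 2232 CPM with JQ1) differed less. Eno3 (-1.91 ± 0.36; 28.6 and 19.3 CPM) and Vegfa (-0.90 ± 0.17; 30.1 and 24.9 CPM) had the lower response in 2iL. Slc2a1, Slc16a3, Pfkl, Pfkp, Pgk1, Ldha and Ndrg1 kept the call in every alternative and with each library left out. Bnip3 lost the call in a fit of only the libraries compared (1.65), without 2iL DMSO replicate 1 (1.51), 2iL JQ1 replicate 1 (1.85), 2iL JQ1 replicate 2 (1.47), serum/LIF DMSO replicate 2 (1.20) and serum/LIF JQ1 replicate 1 (1.32), at adjusted p from 0.0546 to 0.138. Pdk1 lost the call in a fit of only the libraries compared (1.49), without 2iL DMSO replicate 1 (1.27), 2iL JQ1 replicate 2 (1.34) and serum/LIF DMSO replicate 2 (1.21), at adjusted p from 0.0603 to 0.0991. Pkm lost the call in a fit of only the libraries compared (0.61), without 2iL JQ1 replicate 1 (0.56) and serum/LIF DMSO replicate 1 (0.58), at adjusted p from 0.0672 to 0.0987. Eno1 lost the call in a fit of only the libraries compared (0.58), without 2iL DMSO replicate 1 (0.57), 2iL JQ1 replicate 1 (0.58), 2iL JQ1 replicate 2 (0.63) and serum/LIF DMSO replicate 1 (0.54), at adjusted p from 0.0588 to 0.111. Eno3 lost the call without 2iL JQ1 replicate 2 (-1.59), at adjusted p = 0.0681. Vegfa lost the call without 2iL JQ1 replicate 2 (-0.83), at adjusted p = 0.0728.

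Between the knockout and unmodified cells in serum/LIF 1 of the 38 genes was called higher and 3 lower, against 1.25% and 3.12% of all 16987 genes tested, and their median log2 difference was 0.22 and that of all genes -0.02. Ldhb responded in opposite directions, as its 12 values show. It went from 158 and 202 to 72.5 and 108 CPM in serum/LIF, from 119.6 and 108 to 228 and 214 in the knockout and from 369 and 417 to 325 and 372 in 2iL. The log2 difference 1.96 ± 0.24, adjusted p = 0.00128 between the responses was the largest among the 38 genes, and it was kept in every alternative. Slc16a1 (log2 difference -0.87 ± 0.17, adjusted p = 0.0128; 203 and 185 CPM with JQ1 in serum/LIF), Slc16a3 (log2 difference -0.73 ± 0.18, adjusted p = 0.0405) and Vegfa (log2 difference -0.75 ± 0.18, adjusted p = 0.0317) had lower responses in the knockout. Slc16a3 lost the call with RLE scaling (-0.70), without knockout DMSO replicate 1 (-0.73), knockout DMSO replicate 2 (-0.72), knockout JQ1 replicate 1 (-0.64), knockout JQ1 replicate 2 (-0.81), serum/LIF DMSO replicate 1 (-0.71), serum/LIF DMSO replicate 2 (-0.73) and serum/LIF JQ1 replicate 1 (-0.66), at adjusted p from 0.0538 to 0.168. Vegfa lost the call in a fit of only the libraries compared (-0.75), without knockout DMSO replicate 1 (-0.68), knockout DMSO replicate 2 (-0.81), knockout JQ1 replicate 1 (-0.74), knockout JQ1 replicate 2 (-0.75), serum/LIF DMSO replicate 1 (-0.80), serum/LIF DMSO replicate 2 (-0.70) and serum/LIF JQ1 replicate 1 (-0.60), at adjusted p from 0.0508 to 0.148. Slc16a1 lost the call without knockout JQ1 replicate 1 (-0.86) and knockout JQ1 replicate 2 (-0.88), at adjusted p from 0.0581 to 0.0681. The number of members called here ranged from 1 to 10 with a library left out, the 10 without serum/LIF JQ1 replicate 2. With all libraries it was 9 in DESeq2, 10 with no filter on low counts and 9 with a replicate block within each setting. Of the 16 glycolytic enzymes 0 passed in edgeR, 6 had an unadjusted p under 0.05 and 4 passed in DESeq2.

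Between 2iL and the knockout 9 of the 38 genes were called higher and 3 lower, against 6.69% and 5.40% of all 16987 genes tested, and their median log2 difference was 0.11 and that of all genes -0.06. Slc16a3, which rose with JQ1 in 2iL and fell in the knockout, differed the most (log2 difference 1.97 ± 0.19, adjusted p = 0.000279). Slc2a1 (log2 difference 1.23 ± 0.25, adjusted p = 0.0124), Pfkl (log2 difference 1.18 ± 0.14, adjusted p = 0.000863) and Ldha (log2 difference 1.10 ± 0.17, adjusted p = 0.00324) had the larger response in 2iL, as had Pdk1 (1.14 ± 0.33), Ndrg1 (1.02 ± 0.24), Pfkp (0.94 ± 0.25; 193 and 201 with DMSO and 199.8 and 225 CPM with JQ1 in the knockout), Ero1l (0.82 ± 0.17) and Hk2 (0.66 ± 0.13; 271 and 279 with DMSO against 259 and 279.8 CPM with JQ1). Ldhb (-1.14 ± 0.24), Pdk3 (-0.67 ± 0.19) and Hk1 (-0.56 ± 0.17; 23.7 and 28.3 CPM with JQ1 in the knockout) had the smaller response in 2iL. Of the rises seen in both 2iL and knockout cells, the difference did not pass for Bnip3 (0.57, 95% interval -0.30 to 1.44), Pgk1 (0.44, 0.13 to 0.76) or Gapdh (-0.09, -0.41 to 0.22). Only Pfkl, Ldha and Slc16a3 kept the call throughout, and with a library left out 3 to 11 genes were called in place of 12. Hk1 (-0.55) lost the call with RLE scaling, at adjusted p = 0.0516. Pdk1 (0.90), Ndrg1 (0.94), Pfkp (0.78), Ero1l (0.73), Hk2 (0.59), Pdk3 (-0.65), Hk1 (-0.65) and Slc2a1 (1.13) lost their calls without 2iL DMSO replicate 1, at adjusted p from 0.0517 to 0.148. Hk1 (-0.49) lost the call without 2iL DMSO replicate 2, at adjusted p = 0.078. Slc2a1 (1.20), Pdk1 (1.29), Ndrg1 (1.13), Pfkp (0.96), Ero1l (0.81), Hk2 (0.61), Ldhb (-1.04), Pdk3 (-0.66) and Hk1 (-0.54) lost their calls without 2iL JQ1 replicate 1, at adjusted p from 0.0526 to 0.14. Pdk1 (0.96), Ndrg1 (0.89), Pfkp (0.91), Ero1l (0.81), Pdk3 (-0.70) and Hk1 (-0.60) lost their calls without 2iL JQ1 replicate 2, at adjusted p from 0.0527 to 0.134. Ndrg1 (1.02), Pfkp (0.97), Hk2 (0.68), Ldhb (-1.21), Pdk3 (-0.63), Hk1 (-0.53) and Pdk1 (1.11) lost their calls without knockout DMSO replicate 1, at adjusted p from 0.0501 to 0.167. Pdk1 (1.17), Ndrg1 (1.03), Pfkp (0.91), Pdk3 (-0.72) and Hk1 (-0.59) lost their calls without knockout DMSO replicate 2, at adjusted p from 0.0517 to 0.0843. Pdk1 (1.00), Ndrg1 (0.86), Pfkp (0.85), Ero1l (0.74), Hk2 (0.60), Ldhb (-1.09) and Hk1 (-0.69) lost their calls without knockout JQ1 replicate 1, at adjusted p from 0.0563 to 0.131. Pfkp (1.02), Pdk3 (-0.51), Hk1 (-0.44) and Pdk1 (1.29) lost their calls without knockout JQ1 replicate 2, at adjusted p from 0.0819 to 0.184.

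**Figure D2:**
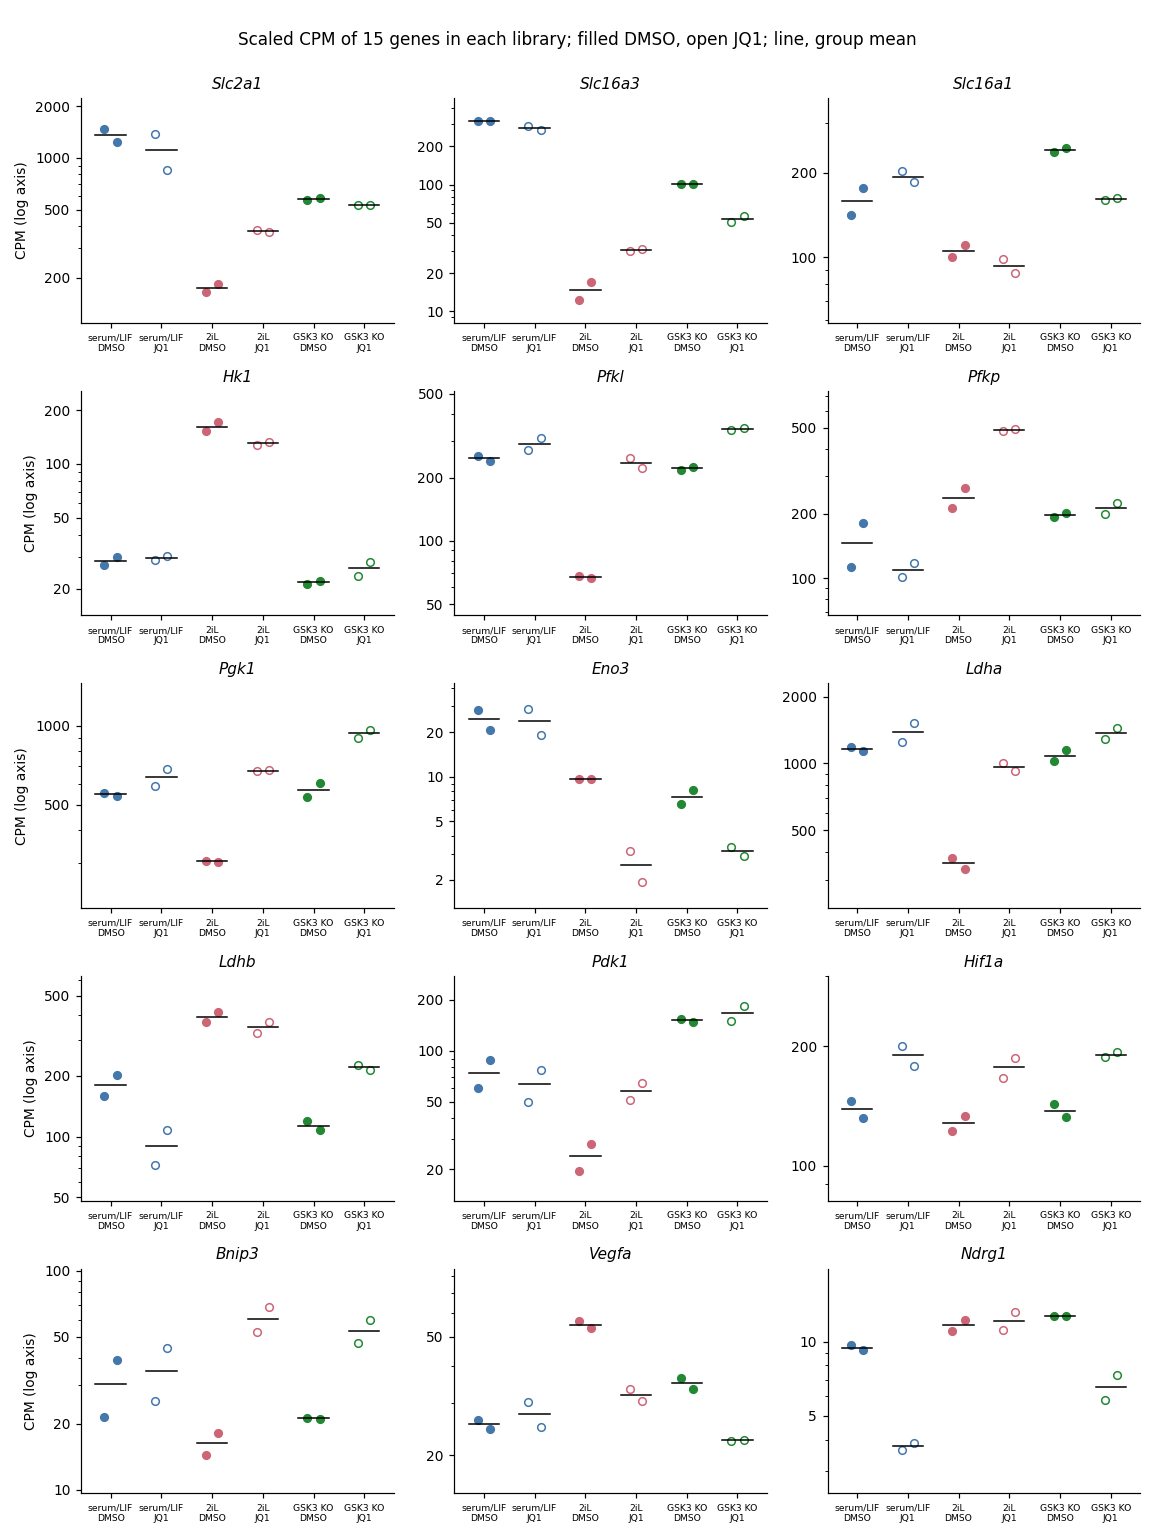
Scaled CPM (log axis) of 15 of the genes in each of the 12 libraries by group, filled points for DMSO and open points for JQ1, with a line at the group mean. Slc2a1, Slc16a3, Pfkl, Pgk1, Ldha and Pdk1 are lowest in the 2iL DMSO libraries, and Ldhb has its lowest group mean in serum/LIF with JQ1.

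With JQ1 in both media, more of the genes were higher than lower in 2iL. This contrast shares its libraries with the JQ1 comparisons above. In it 16 of the 38 genes were called higher and 9 lower, against 25.4% and 27.9% of all 16987 genes tested, and their median log2 difference was 0.17 and that of all genes -0.00. The transporters Slc16a3 (log2 difference -3.20 ± 0.14, adjusted p = 2.15e-09) and Slc2a1 (log2 difference -1.56 ± 0.18, adjusted p = 8.18e-06) and Slc16a1 (-1.06 ± 0.12) were still lower in 2iL, and Slc2a3 no longer passed (-0.48). Tpi1, Pgk1, Pgam1, Pkm and Pdk1, all lower in 2iL without JQ1, were at -0.05, 0.09, -0.22, -0.11 and -0.13 and did not pass. The differences of Ldha (-0.52 ± 0.12), Eno1 (-0.46 ± 0.10) and Pfkl (-0.30 ± 0.10) were smaller in size than without JQ1. Hk1 (log2 difference 2.14 ± 0.12, adjusted p = 1.35e-08; 28.8 and 30.5 against 128 and 133 CPM), Pfkp (log2 difference 2.16 ± 0.19, adjusted p = 6.81e-07), Ldhb (log2 difference 1.95 ± 0.18, adjusted p = 9.89e-07), Mpc1 (1.92 ± 0.16), Ndrg1 (log2 difference 1.69 ± 0.18, adjusted p = 5.18e-06) and Arnt (1.21 ± 0.12) were higher. Bnip3 was called higher (0.80 ± 0.28), having been called lower without JQ1. Eno3 was lower by the most (log2 difference -3.26 ± 0.27, adjusted p = 4.81e-07), and Pfkfb3 (-2.26 ± 0.33; 48.5 and 28.0 CPM in serum/LIF) and Eno2 (-1.72 ± 0.28) were lower. Hk2 (0.53; 276 and 257 CPM in serum/LIF), Gpi1 (0.99), Pfkm (0.44), Aldoa (0.90), Aldoc (0.97), Gapdh (0.43), Pdk3 (0.36; 36.8 and 37.9 against 47.3 and 48.5 CPM), Pdha1 (0.32) and Mpc2 (0.63) were higher by less than 1. Vegfa, Ero1l (99.6 and 124 with DMSO and 136 and 122 CPM with JQ1 in serum/LIF), Hif1a, Egln1, Egln3, Ankrd37 and Pfkfb4 did not pass, at 0.21, 0.23, -0.10, 0.26, 0.12, -0.85 and 0.12. Pdk3 lost the call in DESeq2 (0.33), with RLE scaling (0.33), with no filter on low counts (0.34), in a fit of only the libraries compared (0.32), without mitochondrially encoded genes (0.31), 2iL JQ1 replicate 1 (0.33), 2iL JQ1 replicate 2 (0.29), serum/LIF JQ1 replicate 1 (0.34) and serum/LIF JQ1 replicate 2 (0.32), at adjusted p from 0.0501 to 0.198. Pdha1 lost the call with no filter on low counts (0.30), in a fit of only the libraries compared (0.28), without 2iL JQ1 replicate 1 (0.26), 2iL JQ1 replicate 2 (0.28) and serum/LIF JQ1 replicate 2 (0.24), at adjusted p from 0.0501 to 0.111. Pfkl lost the call in a fit of only the libraries compared (-0.34), without 2iL JQ1 replicate 2 (-0.28) and serum/LIF JQ1 replicate 2 (-0.27), at adjusted p from 0.0546 to 0.091. Pfkm lost the call in a fit of only the libraries compared (0.40), without 2iL JQ1 replicate 1 (0.37), 2iL JQ1 replicate 2 (0.42) and serum/LIF JQ1 replicate 1 (0.29), at adjusted p from 0.0512 to 0.112. Gapdh lost the call in a fit of only the libraries compared (0.39), at adjusted p = 0.0606. Mpc2 lost the call without 2iL JQ1 replicate 1 (0.47), 2iL JQ1 replicate 2 (0.70), serum/LIF JQ1 replicate 1 (0.58) and serum/LIF JQ1 replicate 2 (0.62), at adjusted p from 0.0703 to 0.217. Bnip3 lost the call without 2iL JQ1 replicate 2 (0.55) and serum/LIF JQ1 replicate 1 (0.45), at adjusted p from 0.223 to 0.225.

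**Figure D3:**
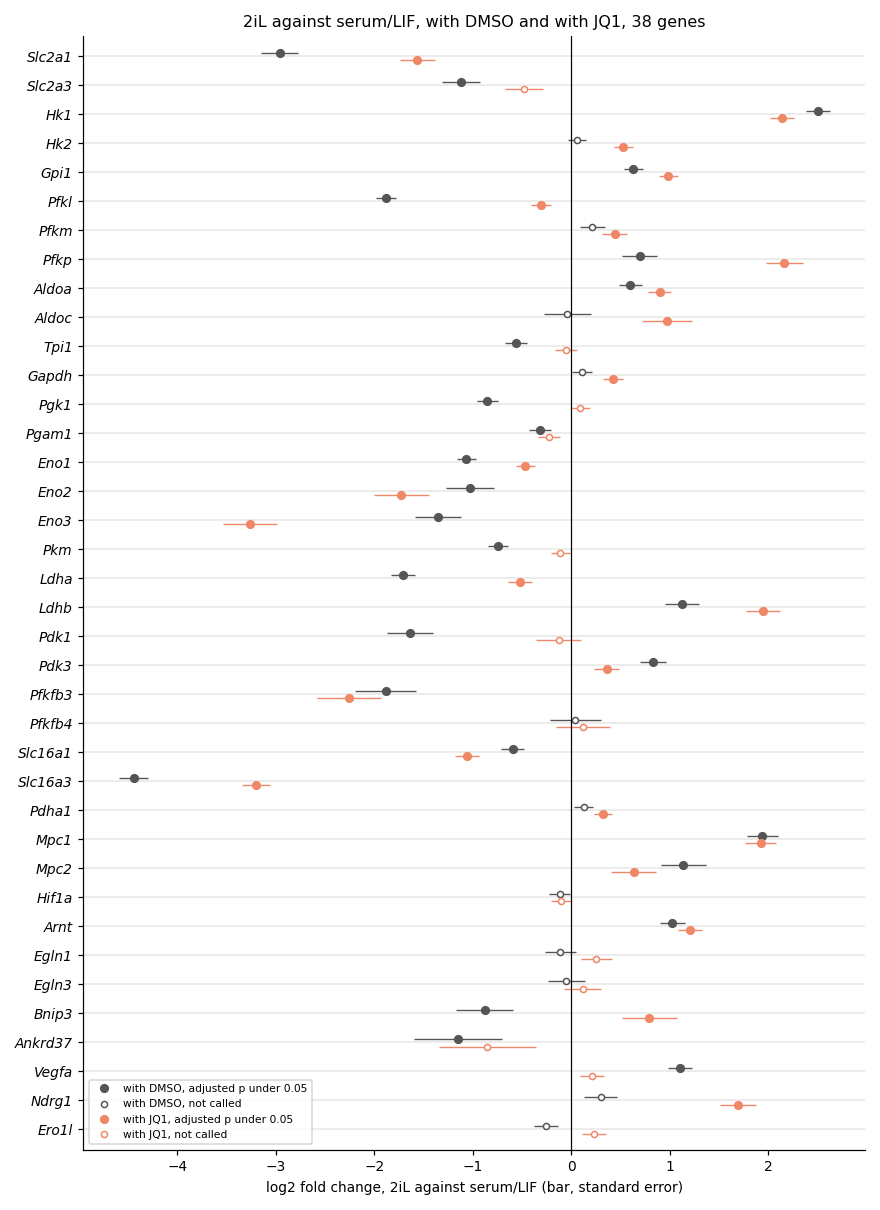
Log2 fold change of each of the 38 genes in 2iL against serum/LIF (horizontal axis), with DMSO in both (grey) and with JQ1 in both (orange), with bars for the standard error and filled points for an adjusted p under 0.05. Slc16a3 lies at -4.44 with DMSO and -3.20 with JQ1, and Hk1 at 2.50 and 2.14.

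Where several genes encode 1 activity, the share of each in the summed TPM of its family gives the mixture. These shares are descriptions of 2 libraries a group (mean ± SD) and carry no test. Hk1 made 14.67% ± 1.58 of hexokinase TPM in serum/LIF with DMSO and 47.90% ± 0.13 in 2iL, and 31.62% ± 1.81 in 2iL with JQ1. Ldha made 82.22% ± 2.99 of lactate dehydrogenase TPM in serum/LIF, 40.92% ± 3.80 in 2iL and 87.61% ± 1.79 in the knockout. With JQ1 these became 91.91% ± 0.99, 67.91% ± 3.06 and 81.97% ± 1.75, so that 2iL cells held more Ldhb than Ldha without JQ1 and the reverse with it. Among phosphofructokinases Pfkl led in serum/LIF with 59.43% ± 6.36 and Pfkp in 2iL with 68.01% ± 0.02. With JQ1 in 2iL Pfkl went from 19.89% ± 0.41 to 35.95% ± 0.72, and Pfkp kept the larger share at 57.60% ± 0.98.

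Slc16a3 made 84.21% ± 2.06 of the TPM of the 2 monocarboxylate transporters in serum/LIF with DMSO, 54.02% ± 1.27 in the knockout and 27.92% ± 6.53 in 2iL, and 48.85% ± 5.37 in 2iL with JQ1. Slc2a1 made 38.59% ± 1.67 of glucose transporter TPM in serum/LIF and 14.89% ± 0.12 in 2iL and 13.90% ± 1.67 in the knockout, the rest being Slc2a3. Pdk1 made 56.47% ± 9.03 of the Pdk1 and Pdk3 total in serum/LIF, 17.01% ± 3.29 in 2iL and 75.96% ± 2.03 in the knockout, and 41.95% ± 4.60 in 2iL with JQ1. Pfkfb3 made 91.44% ± 2.93 of its pair in serum/LIF and 50.28% ± 0.40 in the knockout, where both genes were low. Aldoa made at least 99.40% of its family in every group. Eno1 made at least 97.79% of the total of Eno1, Eno2 and Eno3, a total that leaves out Eno1b.

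**Figure D4:**
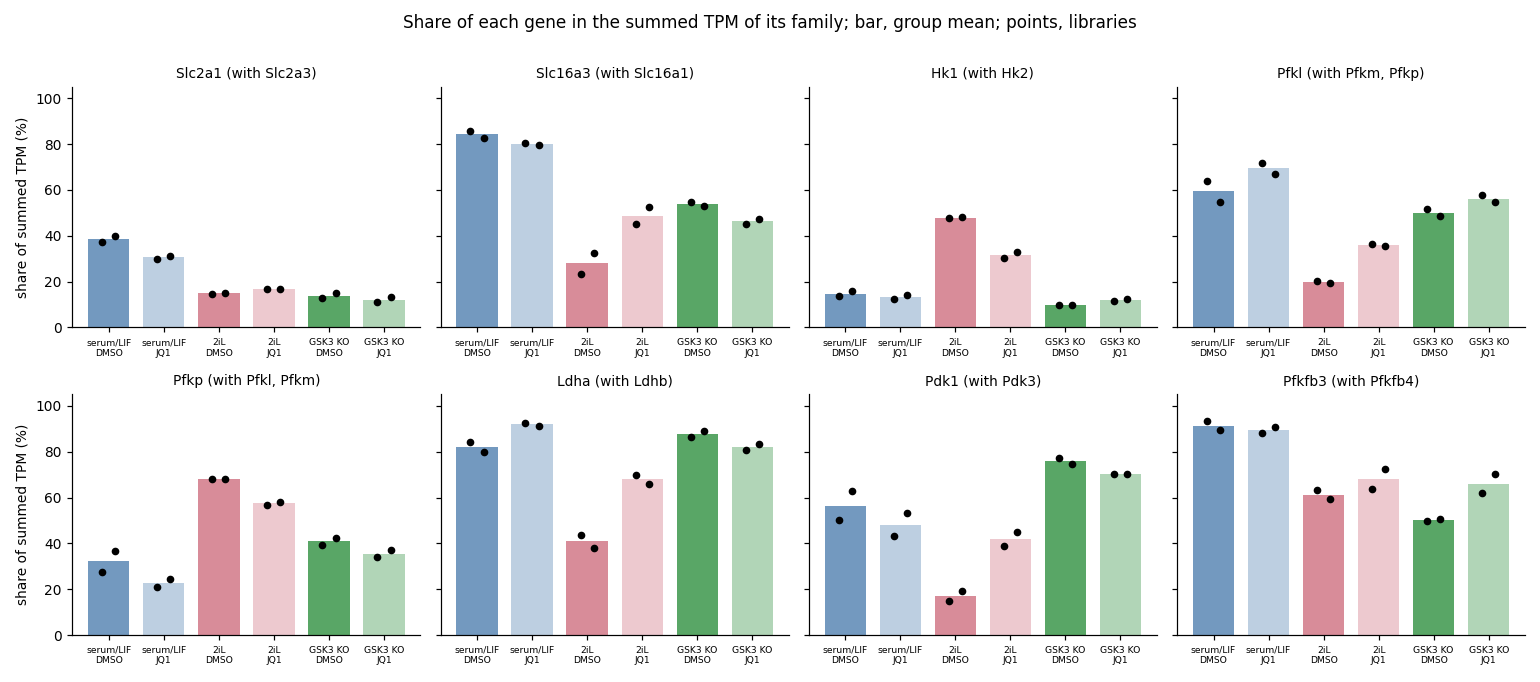
Share of 8 genes in the summed TPM of their family (percent, vertical axis) by group, with bars for the group mean and points for the 2 libraries. In 2iL with DMSO the bar of Ldha falls to 40.92% and that of Hk1 rises to 47.90%.

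Other genes of the same pathways, from lists that exclude the 38, are given by their counts. With JQ1 in 2iL 11.2% of all 16987 genes tested were called higher and 17.3% lower. The shares of all genes were 14.6% and 19.5% in the knockout and 8.54% and 12.8% in serum/LIF. Every list that follows is to be read beside these shares. Of 16 other glycolysis genes tested, 1 higher and 5 lower were called with JQ1 in 2iL, 1 higher and 3 lower in the knockout and 0 higher and 3 lower in serum/LIF, with medians of -1.00, -0.86 and -0.43. Fbp2, a fructose bisphosphatase that runs the opposite way to phosphofructokinase, went from 8.90 and 2.81 to 1.02 and 0.69 CPM in 2iL (log2 difference -2.79 ± 0.50, adjusted p = 0.00154). G6pc3, which frees glucose from its phosphate, went from 13.7 and 11.5 to 6.21 and 6.12 CPM (log2 difference -1.03 ± 0.18, adjusted p = 0.00108), and Pfkfb2 from 5.83 and 8.80 to 12.8 and 12.6 CPM (log2 difference 0.79 ± 0.25, adjusted p = 0.0345). Of 10 other pyruvate-handling genes 1 higher and 1 lower were called in 2iL, 0 higher and 1 lower in the knockout and 2 higher and 0 lower in serum/LIF, with medians of -0.02, 0.15 and -0.10. Pdk2, a kinase like Pdk1, went from 7.62 and 5.39 to 2.11 and 1.94 CPM in 2iL (log2 difference -1.68 ± 0.30, adjusted p = 0.00138). Pdpr, a subunit of the opposing phosphatase, went from 11.1 and 21.1 to 33.8 and 32.1 CPM (log2 difference 1.03 ± 0.30, adjusted p = 0.0222). Pdp2, which encodes a catalytic pyruvate dehydrogenase phosphatase, went from 39.2 and 40.5 to 28.0 and 23.8 CPM in the knockout (log2 difference -0.62 ± 0.12, adjusted p = 0.00239). Pfkfb2 lost the call without 2iL DMSO replicate 1 (0.53), 2iL JQ1 replicate 1 (0.80) and 2iL JQ1 replicate 2 (0.81), at adjusted p from 0.117 to 0.237. Pdpr lost the call without 2iL DMSO replicate 1 (0.65), 2iL JQ1 replicate 1 (1.01) and 2iL JQ1 replicate 2 (1.08), at adjusted p from 0.0797 to 0.178.

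Of 10 other oxygen-sensing genes 3 higher and 2 lower were called with JQ1 in 2iL, 4 higher and 0 lower in the knockout and 3 higher and 0 lower in serum/LIF, with medians of 0.15, 0.17 and 0.10. Siah2, a ubiquitin ligase for the prolyl hydroxylases, went from 5.62 and 3.74 to 9.95 and 10.8 CPM in serum/LIF (log2 difference 1.11 ± 0.22, adjusted p = 0.00397), and Vhl, which recognises hydroxylated HIF-1α, from 12.7 and 11.1 to 20.5 and 19.9 CPM (log2 difference 0.76 ± 0.15, adjusted p = 0.00341). Hif3a went from 4.13 and 7.09 to 3.08 and 3.36 CPM in 2iL (log2 difference -0.80 ± 0.27, adjusted p = 0.0406). Of 27 other hypoxia targets 7 higher and 4 lower were called in 2iL, 6 higher and 9 lower in the knockout and 3 higher and 7 lower in serum/LIF, with medians of 0.02, -0.28 and -0.20. The carbonic anhydrase gene Car12 went from 5.58 and 8.44 to 1.13 and 1.65 CPM in serum/LIF (log2 difference -2.33 ± 0.38, adjusted p = 0.00128), and the repressor gene Bhlhe40 from 15.5 and 18.1 to 5.81 and 5.87 CPM in 2iL (log2 difference -1.52 ± 0.30, adjusted p = 0.00281). Hif3a lost the call in a fit of only the libraries compared (-0.77), without 2iL DMSO replicate 2 (-0.35), 2iL JQ1 replicate 1 (-0.72) and 2iL JQ1 replicate 2 (-0.86), at adjusted p from 0.114 to 0.372.

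The pentose phosphate pathway branches off before phosphofructokinase, and the TCA cycle takes up the carbon of pyruvate. Of 10 pentose phosphate genes 1 higher and 2 lower were called in 2iL, 3 higher and 2 lower in the knockout and 0 in serum/LIF, with medians of -0.13, 0.25 and 0.07. In serum/LIF 2 had an unadjusted p under 0.05 in edgeR and 0 passed in DESeq2. Rpe, which interconverts pentose phosphates, went from 59.3 and 52.3 to 92.7 and 90.7 CPM in 2iL (log2 difference 0.72 ± 0.10, adjusted p = 0.000287), H6pd from 19.96 and 22.0 to 10.9 and 11.9 CPM in the knockout (log2 difference -0.88 ± 0.16, adjusted p = 0.00124) and the transaldolase gene Taldo1 from 154 and 167 to 232 and 236 CPM (log2 difference 0.54 ± 0.15, adjusted p = 0.0172). Of 12 TCA cycle genes 1 higher and 1 lower were called in 2iL, 3 higher and 0 lower in the knockout and 1 higher and 0 lower in serum/LIF, with medians of -0.09, 0.26 and 0.11. Ogdh, of the 2-oxoglutarate dehydrogenase complex, went from 139 and 151 to 233 and 230 CPM in 2iL (log2 difference 0.68 ± 0.11, adjusted p = 0.000886) and Suclg2, of succinate-CoA ligase, from 116 and 101 to 55.2 and 61.6 CPM (log2 difference -0.89 ± 0.13, adjusted p = 0.000458). Fh1, which encodes fumarase, went from 62.5 and 69.5 to 97.9 and 96.1 CPM in the knockout (log2 difference 0.56 ± 0.10, adjusted p = 0.00126). Taldo1 lost the call without knockout DMSO replicate 1 (0.49), knockout DMSO replicate 2 (0.60), knockout JQ1 replicate 1 (0.56) and knockout JQ1 replicate 2 (0.54), at adjusted p from 0.0503 to 0.112.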

How the data were processed

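Expected counts per gene were estimated by the authors with RSEM and are deposited unscaled, 1 table per library, and TPM and effective length were deposited in the same tables, per the file headers, and TPM served only to compare levels between genes. Per the submitters' processing notes STAR 2.5.2, bcl2fastq, DESeq2 1.18.1, RSEM and mm10 were used, in no stated role, and the annotation release and strand setting are not given in the sources used here. Of 52550 identifiers 52403 matched GENCODE M21 (GRCm38) with versions removed. After rounding, edgeR 4.0.16 (R 4.3.3) was run on the expected counts: filterByExpr (minimum count 10, total 15; 16987 genes), TMM scaling, 1 quasi-likelihood fit of 6 groups with 6 residual degrees of freedom, and two-sided p-values adjusted by Benjamini-Hochberg over all genes tested. CPM uses the TMM-scaled library size. A standard error is the log2 fold change over the square root of F, and 95% intervals use the moderated degrees of freedom.

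The members and lists were chosen with earlier results of these data known. Values in each library are given for genes called in a difference of JQ1 responses and for the 3 largest called changes in each other comparison. From each other list up to 3 genes were named, with the largest changes called with JQ1 at 5 CPM or more in a group. 1 gene that this rule names is not reported here. On simulated counts 200 genes were given known changes in the 2iL JQ1 libraries, and each gene otherwise had 1 mean over all groups. The spread was drawn from the fit's own trend, so the share of false calls is not an outside check. For JQ1 in 2iL (16221 genes) the test recovered 57.9% of changes of log2 1 and 85.1% of log2 2, with 4.26% of calls unchanged genes. For its difference from serum/LIF (16232 genes) these were 39.4%, 75.5% and 3.48%. In the data 4834 genes were called with JQ1 in 2iL, far more than were changed here, so recovery there may differ. Libraries of a group differed beyond counting error (chi-square per gene 7.945 to 36.5), so each was counted as a sample, and the check does not tell separate cultures from separate libraries of 1 RNA. Alternatives were DESeq2 1.42.0, RLE scaling, no filter, 1 CPM in 4 libraries, a replicate block, over all groups or, added after seeing the data, within each setting, no mitochondrially encoded genes, only the libraries compared, and each library left out. A lone library is then assumed to vary like the other groups. Promoter windows come from RefSeq (GRCm38.p6).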

Additional observations from a re-analysis of the deposited data

Results flagged for a closer look

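These genes are listed because the difference between 2 settings in their log2 response to JQ1 was itself tested in edgeR and passed at an adjusted p under 0.05 over all genes. The response in 2iL minus that in serum/LIF was positive for Slc2a1 (1.40), Pfkl (1.58), Pfkp (1.47), Pgk1 (0.94), Eno1 (0.60), Pkm (0.63), Ldha (1.18), Pdk1 (1.51), Slc16a3 (1.24), Bnip3 (1.67) and Ndrg1 (1.39), and negative for Eno3 (-1.91) and Vegfa (-0.90). In the knockout minus unmodified serum/LIF cells it was positive for Ldhb (1.96) and negative for Slc16a1 (-0.87), Slc16a3 (-0.73) and Vegfa (-0.75). In 2iL minus the knockout it was positive for Slc2a1 (1.23), Hk2 (0.66), Pfkl (1.18), Pfkp (0.94), Ldha (1.10), Pdk1 (1.14), Slc16a3 (1.97), Ndrg1 (1.02) and Ero1l (0.82), and negative for Hk1 (-0.56), Ldhb (-1.14) and Pdk3 (-0.67). The pairs of contrasts share libraries, so a gene that appears more than once is not independent evidence. Of these calls 7 of 13, 1 of 4 and 3 of 12 were kept in every alternative fit and with each library left out.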

How the results depend on the processing

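No member called in any of the 9 comparisons changed sign under any alternative. With all libraries kept, the number of members called moved by over 1.5 times in 2 comparisons. For the difference of the JQ1 response between the knockout and unmodified serum/LIF cells it was 9 in DESeq2 and 10 with no filter on low counts, in place of 4. For JQ1 in serum/LIF it was 2 in a fit of only the libraries compared, in place of 7, where the calls over all genes went from 3623 to 2245. With 1 library left out the number ran from 10 to 15 for the knockout against unmodified cells (20 with all), 3 to 11 for the difference between 2iL and the knockout (12), 8 to 15 for that between 2iL and serum/LIF (13), 1 to 10 for that between the knockout and serum/LIF (4), and 3 to 8 for JQ1 in serum/LIF (7). For the others it ran from 24 to 26 (media with DMSO, 27), 19 to 22 (media with JQ1, 25), 21 to 25 (JQ1 in 2iL, 24) and 16 to 21 (JQ1 in the knockout, 22). The labels do not say that a replicate number marks a shared batch, so the numbers were not taken as pairs. Deviations of same-numbered libraries correlated between -0.272 and 0.313 over all pairs of groups. Between DMSO and JQ1 within a setting the correlations were 0.313 in serum/LIF, 0.187 in 2iL and 0.207 in the knockout, each over only 2 numbers. These values do not settle whether the numbers pair libraries within a setting. A replicate block over all groups gave 8, 25 and 22 members called with JQ1 in serum/LIF, 2iL and the knockout, 27 and 26 between media with DMSO and with JQ1, 21 for the knockout, and 14, 6 and 13 for the differences of the response (2iL against serum/LIF, knockout against serum/LIF, and 2iL against knockout). A replicate block within each setting, chosen after seeing the data, gave 13, 27 and 23 with JQ1 and 17, 9 and 17 for the differences, and no call of the 38 genes was lost under it. Over all genes this block called 4895, 5939 and 6950 with JQ1 in serum/LIF, 2iL and the knockout, against 3623, 4834 and 5799 without it. For the differences, in the order above, it called 1463, 2150 and 3721, against 706, 742 and 2055. RLE scaling moved the median of all genes by less than 0.1. In these libraries 3 counts are 0.0616 to 0.168 CPM, so depth limits the low genes such as Ankrd37 and Pfkfb4 most.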
